A study of Mus musculus with 6 samples.

Results

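CpG islands are stretches of DNA rich in CG dinucleotides, many of them at gene starts, that are largely free of methylation in normal tissue, and gain of methylation at such islands accompanies chronic inflammation and cancer in several organs. Islands often lie in groups along a chromosome, and methylated and unmethylated states tend to extend over neighbouring CG sites. The islands described here are those in dense neighbourhoods: a run of at least 3 array probes whose starts lay no more than 500 bp apart was taken as an island, and an island was a member when at least 2 other islands lay within 10 kb of its ends on chromosomes 1 to 19. Of the 13832 islands on the array, 13441 lay on these 19 chromosomes and 1173 were members. Within 5 blocks, 1 each on chromosomes 2, 6, 11, 15 and 18, which together held 92 islands, no member was taken.

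Methylation was measured in whole liver of male mice on the FVB background at 12 months of age. The Mdr2-KO mice lacked both copies of Mdr2 (Abcb4), which encodes the canalicular transporter that brings phospholipid into bile, and without it bile salts injure the bile ducts and a chronic hepatitis leads to liver tumours. The controls were Mdr2-/+ heterozygotes, bred from Mdr2-KO and FVB/NJ mice, so both genotypes carried the mutated allele and no mouse with 2 intact copies was among the 6 arrays. Each genotype had 3 mice with 1 array each. In methylated DNA immunoprecipitation (MeDIP) an antibody to 5-methylcytosine collects methylated fragments, and here the Cy5 signal of the precipitate was set against the Cy3 signal of the unprecipitated input DNA of the same mouse. The value of an island was the mean over its probes of the log2 ratio of MeDIP to input, with each array centred on its median, so that 0 is the typical probe of the array and a higher value means more methylated DNA. The ratio also depends on how many CG sites a fragment holds, so a level orders islands only roughly, and in whole liver a change within a cell type and a change in the mix of cells cannot be told apart. The arrays carried no tissue markers and no gene names, and positions are those of the mm8 build.

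The arrays lay on 3 slides, as read from the barcode of each deposited scan. Mdr2-/+ replicate 1 and Mdr2-KO replicate 1 shared a slide, while the other 2 Mdr2-/+ arrays lay on a slide of their own and the other 2 Mdr2-KO arrays on another, so genotype and slide cannot be told apart on those 4 arrays. Among member probes, 80.2% to 88.4% were well above background in the MeDIP channel of an array and 86.4% to 91.8% in the input channel, and none was saturated. Over all islands, pairs of arrays of 1 genotype correlated at 0.978 to 0.990 and pairs of different genotypes at 0.944 to 0.976.

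The 1173 members formed 423 neighbourhoods, each a set of islands joined by gaps of at most 10 kb. These neighbourhoods held 1534 islands in all, of which 361 had only 1 other island within 10 kb and were not members. A neighbourhood of 3 islands was the usual case, with 272 of the 423, and 82 held 4. The largest, on chromosome 10, held 9 islands each. Members were a little shorter than the islands of the array as a whole, with a median length of 565 bp against 644 bp, and had the same median of 5 probes.

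Methylation of members was higher than that of the typical island in every mouse. The median member level was 0.12, -0.01 and 0.03 in the 3 Mdr2-/+ mice, where the median over all islands was -0.08, -0.13 and -0.13. In the 3 Mdr2-KO mice it was 0.19, 0.20 and 0.17, where the median over all islands was -0.11, -0.14 and -0.11. The excess of members over all islands was thus 0.12 to 0.20 in the Mdr2-/+ mice and 0.27 to 0.34 in the Mdr2-KO mice, and the ranges of the genotypes did not overlap. Not all members shared this: the quartiles of the Mdr2-/+ mean were -0.43 and 1.12 over members, against -0.51 and 0.40 over all islands. When all islands were divided into 5 classes of equal size by their mean over all 6 arrays, 31.9% of members lay in the highest class.

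The extremes of the Mdr2-/+ level show how far members of neighbourhoods differ. The highest was chr11:77287634-77287929, at 6.81, 5.83 and 5.55 in the Mdr2-/+ mice and 6.21, 6.10 and 5.97 in the Mdr2-KO mice. Next came chr7:44875133-44876607, with a mean of 5.74 ± 0.58 (SD, n = 3) in Mdr2-/+ and 5.84 ± 0.05 (SD, n = 3) in Mdr2-KO, and chr15:76003919-76004392, with 5.60 ± 0.57 and 5.71 ± 0.09. These 3 islands were strongly methylated in both genotypes, and their values overlapped. The lowest were chr7:45573448-45573794, with a mean of -2.30 ± 0.48 in Mdr2-/+ and -2.06 ± 0.42 in Mdr2-KO, and chr6:31147911-31148354, with -1.81 ± 0.40 and -1.90 ± 0.39. At these 2 islands only 22.2% and 33.3% of the Mdr2-/+ MeDIP spots were well above background. The third lowest, chr7:79381937-79382718, stood at -1.58, -1.77 and -1.74 in the Mdr2-/+ mice and at -0.56, 0.30 and -0.46 in the Mdr2-KO mice, and was among the islands that rose (difference 1.46, SE 0.22, limma adjusted p = 0.0152). Of its Mdr2-/+ MeDIP spots 44.4% were well above background, and with normexp background correction its difference was 0.10 and not called.

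The first comparison asked which member islands differed between Mdr2-KO and Mdr2-/+ livers. Of the 1172 members tested, 91 (7.76%) were higher and 2 (0.171%) were lower in Mdr2-KO at an adjusted p under 0.05, by limma with Benjamini-Hochberg adjustment over all 13821 islands tested. Over all islands, 4.28% were higher and 0.217% were lower. One member had fewer than 3 usable probes and was not tested. All 3 Mdr2-KO mice lay above all 3 Mdr2-/+ mice at 25.2% of members, where 15.9% of all islands did so, and below them at 6.31% of members, where 10.8% of all islands did so. The median difference of members was 0.11, with quartiles of -0.07 and 0.39, against 0.00 over all islands, and 64.5% of members had a positive difference against 50.4% of all islands. With quantile normalization between arrays the split became 156 higher and 26 lower among members, and 990 higher and 380 lower among all 13821 islands. The share higher was then 13.3% of members and 7.16% of all islands.

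The share that rose increased with the number of neighbours. Among islands of chromosomes 1 to 19 with none within 10 kb, 3.58% of 9429 rose, and among those with 1 other island, 4.82% of 2737. Members with exactly 2 others rose at 7.30% of 795 and members with 3 or more at 8.75% of 377, and no member of this last set fell. The direction of non-overlap shifted the same way, from 14.3% above and 11.6% below with no neighbour to 28.1% above and 4.51% below with 3 or more. The order of these shares is a description of the islands, which are not replicates. At the edge of the rule, the 130 members whose second nearest island lay 9 to 10 kb away had a median difference of 0.04 and 10 rose, and the 124 islands just outside, at 10 to 11 kb, had a median of 0.08 and 7 rose. Closeness of the second nearest island gave no steady order among members. The share that rose was 6.82% of 88 up to 2 kb, 8.79% of 398 at 2 to 5 kb and 7.29% of 686 at 5 to 10 kb.

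**Figure D1:**
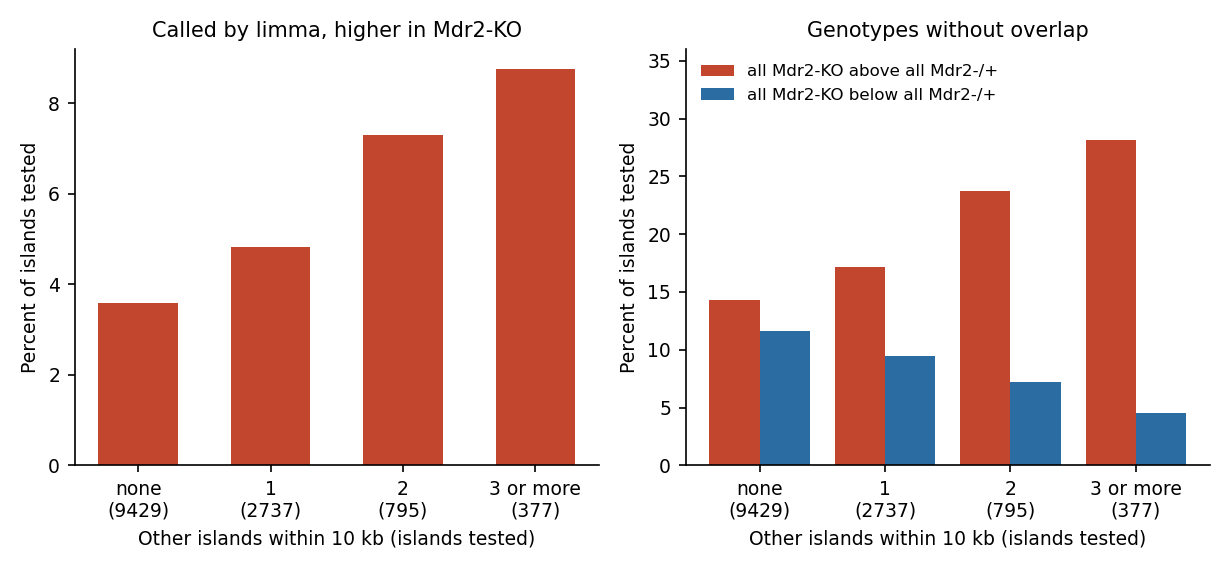
Share of islands, in percent of those tested, by the number of other islands within 10 kb on chromosomes 1 to 19, with the number tested in brackets. The left bars show islands called higher in Mdr2-KO by limma (3.58% to 8.75%), and the right bars show islands at which the 3 mice of each genotype did not overlap, in red with Mdr2-KO above and in blue with Mdr2-KO below.

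The level of an island, taken as its mean over all 6 arrays, moved with these shares. That mean includes the Mdr2-KO arrays, so a rise itself lifts an island's class, and the order of the classes is partly built in. Of the 5 classes by this level, 0.615% of all islands rose in the lowest and 10.6% in the highest. Members rose more often in each class, at 1.70% and 0.615% for members and all islands in the lowest, 3.03% and 1.30% in the second, 6.09% and 2.35% in the third, 9.69% and 6.48% in the fourth and 12.8% and 10.6% in the highest. With the trend of the difference on this level subtracted, 3.92% of members and 2.24% of all islands rose, with 46 members rising. The trend subtracted holds part of the rise for the same reason. How much of the difference between members and other islands goes with level was not tested beyond these values.

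The counts depended on single arrays and on the slide. Without Mdr2-/+ replicate 1, 391 members rose (33.4%, against 19.1% of all islands). Without Mdr2-/+ replicate 2, Mdr2-/+ replicate 3, Mdr2-KO replicate 1 or Mdr2-KO replicate 2 the number fell to 14, 10, 6 and 29. In that order, 1.2%, 0.853%, 0.512% and 2.47% of members rose, against 0.658%, 0.463%, 0.239% and 1.09% of all islands. Without Mdr2-KO replicate 3 it was 72 members (6.14%, against 3.2% of all islands). With slide as a fixed block, which rests on the 2 mice that shared a slide, no member was called. The median difference of members was then 0.0057 where that of all islands was -0.04. Under this block 126 members passed an unadjusted p of 0.05 upwards and 126 downwards, with no such count over all islands. Without the slide in the fit, 294 members passed an unadjusted p of 0.05 upwards and 42 downwards, where 2049 and 761 of all 13821 islands did so.

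The 91 members that rose had differences of 0.50 to 2.63, with quartiles of 0.79 and 1.32, and 42 of them had a difference of at least 1. In 38 the Mdr2-/+ level was below 0, and in 25 it was 1 or more. Islands below the array's typical level in the controls and islands well above it were thus among them. In 75 of the 91 every usable probe was higher in Mdr2-KO. The change was in the precipitate: over the 91, the median difference was 0.91 in the MeDIP channel and -0.03 in the input channel.

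The largest rise among members was at chr17:33561633-33562151, a 519 bp island of 5 probes. It stood at 1.70, 0.62 and 1.49 in the Mdr2-/+ mice and at 3.82, 3.91 and 3.97 in the Mdr2-KO mice, a difference of 2.63 (SE 0.26, adjusted p = 0.0042). The Mdr2-KO mice lay close together at a high level, and the Mdr2-/+ mice were spread over a lower one. A similar picture was seen at chr19:46362184-46362704, with 2.01, 0.76 and 1.05 in Mdr2-/+ and 3.61, 3.48 and 3.68 in Mdr2-KO (difference 2.31, SE 0.29, adjusted p = 0.0093).

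At several islands the rise started from a level near or below 0, with Mdr2-/+ mice close together. The clearest was chr5:35705077-35706362, at -0.0017, 0.04 and -0.11 in Mdr2-/+ and 2.39, 2.86 and 1.97 in Mdr2-KO (difference 2.43, SE 0.21, adjusted p = 0.0036). The island chr8:90362245-90363895 went from -0.45, -0.25 and -0.31 to 1.39, 2.15 and 1.39 (difference 1.98, SE 0.21). The next, chr8:124002133-124004262, had 15 probes over 2130 bp and went from 0.33, 0.11 and 0.25 to 1.96, 2.37 and 1.72 (difference 1.79, SE 0.17). In each of these, Mdr2-KO replicate 2 was the highest of the 6 mice, and the genotypes were far apart.

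The same order among Mdr2-KO mice was seen at chr4:99148017-99150141, where the Mdr2-/+ mice stood at -0.30, -0.30 and -0.19 and the Mdr2-KO mice at 1.25, 2.04 and 0.98 (difference 1.68, SE 0.25). It was seen again at chr14:83253910-83256134, an island of 21 probes, with 0.40, 0.09 and 0.30 against 1.78, 2.37 and 1.58 (difference 1.65, SE 0.21). At chr4:44724191-44724653 the values were -1.01, -0.54 and -0.42 in Mdr2-/+ and 0.96, 1.29 and 0.64 in Mdr2-KO (difference 1.62, SE 0.21). These 3 islands were below or near the typical level in the controls and above it in every Mdr2-KO mouse.

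The other named rises were at islands already above the typical level in every control mouse. At chr11:21892778-21893988 the Mdr2-/+ mice stood at 1.24, 0.51 and 0.87 and the Mdr2-KO mice at 2.59, 3.07 and 2.20 (difference 1.75, SE 0.25). At chr7:11943471-11944565 the values were 2.59, 1.67 and 1.98 against 3.90, 4.06 and 3.49 (difference 1.74, SE 0.25). Here Mdr2-/+ replicate 1 was the highest of the controls, and the lowest Mdr2-KO mouse still lay above it at both.

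Only 2 members fell, both on chromosome 8 and both with weak signal. The island chr8:87082678-87083051 stood at 0.25, -0.01 and -0.04 in Mdr2-/+ and at -0.73, -0.58 and -1.32 in Mdr2-KO (difference -0.94, SE 0.20, adjusted p = 0.0416). Only 33.3% of its MeDIP spots were well above background in each genotype. The island chr8:87730242-87730898 stood at 0.09, -0.54 and 0.17 against -0.84, -0.94 and -1.09 (difference -0.86, SE 0.19, adjusted p = 0.0487). Its MeDIP spots were well above background in 44.4% of cases in Mdr2-/+ and 33.3% in Mdr2-KO, and with the median over its 3 probes in place of the mean the difference was 0.10.

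**Figure D2:**
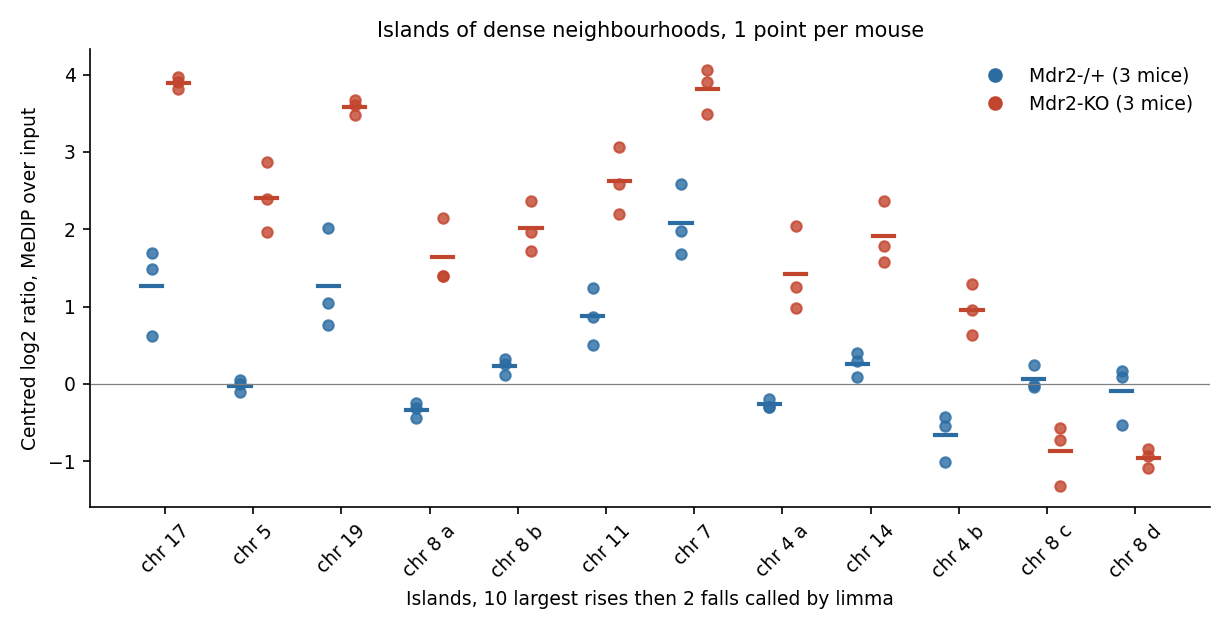
Centred log2 ratio of MeDIP to input at the 10 members with the largest rises, from the largest on the left, and at the 2 members that fell, with 1 point per mouse and a bar at each genotype's mean. Letters a to d mark islands of 1 chromosome in the order plotted, and at all 12 islands the 3 Mdr2-/+ mice (blue) and the 3 Mdr2-KO mice (red) do not overlap.

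The second comparison asked whether the islands of a neighbourhood changed together. Each neighbourhood was given the mean over its islands in every mouse, and was tested together with all other chains of islands joined by gaps of at most 10 kb, single islands included. Of the 423 neighbourhoods, 23 (5.44%) were higher and 1 (0.236%) was lower in Mdr2-KO by limma, where 3.98% of the 11073 chains were higher and 0.235% were lower. At an unadjusted p under 0.05, 112 neighbourhoods were higher and 5 lower. No count over all chains can be set beside them, so this split is not read as a trait of the neighbourhoods. In 17 of the 23 that rose, every island had a positive difference, and none of the 23 rose without at least 1 island called. Without single arrays the number that rose ran from 1 to 138, and with slide as a fixed block it was 0. Under that block 22 passed an unadjusted p of 0.05 upwards and 18 downwards, again with no count over all chains.

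The neighbourhood with the largest rise was chr8:90358805-90363895, with 3 islands within 5091 bp. Its mean was -0.57, -0.44 and -0.42 in the Mdr2-/+ mice and 0.73, 0.73 and 0.77 in the Mdr2-KO mice, a difference of 1.22 (SE 0.10, adjusted p = 0.00301). The 3 islands differed by 0.55, 1.14 and 1.98 along the chromosome, and the latter pair was called. At the first, the lowest Mdr2-KO mouse stood at -0.10 and the highest Mdr2-/+ mouse at -0.15, so all 3 islands separated the genotypes, the first by a narrow margin.

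One neighbourhood, chr2:61605997-61617115, had all 3 of its islands called higher. The first went from -0.48, -0.27 and -0.28 in Mdr2-/+ to 0.42, 0.43 and 0.28 in Mdr2-KO (difference 0.72, SE 0.12). The middle one went from 0.76, 0.52 and 0.68 to 2.08, 2.86 and 1.77 (difference 1.58, SE 0.26), and the third from 2.08, 1.42 and 1.70 to 2.80, 2.97 and 2.48 (difference 1.02, SE 0.20). The level increased from the first island to the third in both genotypes, and the genotypes were apart at each of them.

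In several other neighbourhoods that rose, every island had a positive difference, though not every island was called. At chr10:126482603-126495029 the 3 islands differed by 1.12, 1.20 and 1.105, the latter pair called, and the neighbourhood mean went from 2.58, 2.01 and 2.06 to 3.30, 3.81 and 2.97 (difference 1.14, SE 0.23, adjusted p = 0.035). At chr4:99142882-99150141 they differed by 0.59 to 1.68 (mean difference 0.97, SE 0.19), and at chr7:70219770-70231564 by 0.63 to 1.51 (mean difference 0.96, SE 0.21). In each of these, 1 of the 3 islands was called, and the genotypes overlapped at 1 island of the former and at 2 of the latter. At chr8:72809792-72818384 the 4 islands differed by 1.13, 1.08, 0.10 and 1.32 along the chromosome (mean difference 0.91, SE 0.19), and 2 of the 4 were called. The third of these 4 islands stood at 0.11, -0.01 and 0.16 in Mdr2-/+ and 0.16, 0.28 and 0.11 in Mdr2-KO, so an island whose genotypes overlapped lay between islands that separated them.

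In other neighbourhoods 1 island carried the difference. At chr7:18463322-18478883 the first island, which was not itself a member, went from 0.88, 0.27 and 0.56 to 3.17, 3.43 and 3.51 (difference 2.80, SE 0.18, adjusted p = 0.00168). The member next to it differed by -0.26 (SE 0.12) and the third island by 0.17 (SE 0.22), neither of them called, and the neighbourhood as a whole was called with a mean difference of 0.91 (SE 0.14). At chr19:46357677-46371162 the island in the middle differed by 2.31 while the islands beside it differed by -0.19 and 0.49, which were not called. The neighbourhood of the largest rise among members was of this kind as well: in chr17:33518801-33566843 the other 7 islands differed by -0.10 to 0.21 and none was called, and the neighbourhood mean, at 0.37 (SE 0.12, adjusted p = 0.124), did not pass.

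**Figure D3:**
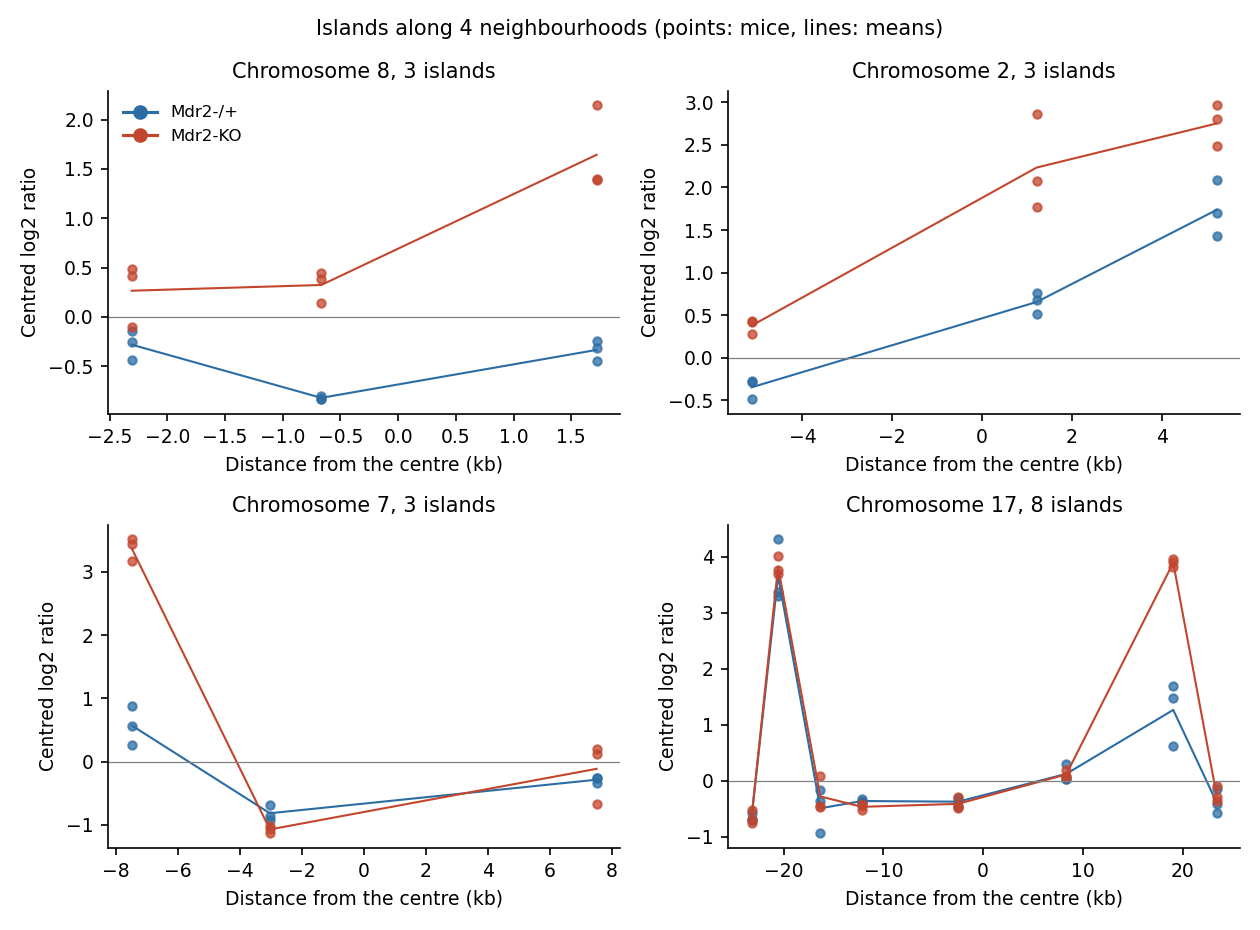
Centred log2 ratio of the islands along 4 neighbourhoods against the distance from the neighbourhood's centre in kb, with 1 point per mouse and a line through the genotype means. In the chromosome 8 and chromosome 2 neighbourhoods every island separates the genotypes, whereas in those of chromosome 7 and chromosome 17 a single island carries most of the difference.

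The neighbourhood that fell was chr8:87722255-87747449, where all 4 islands lay lower in every Mdr2-KO mouse than in any Mdr2-/+ mouse. Its mean was -0.43, -0.08 and -0.46 in Mdr2-/+ and -0.94, -0.99 and -0.92 in Mdr2-KO (difference -0.63, SE 0.13, adjusted p = 0.036). The last of its islands stood at -1.05, 1.15 and -1.17 in Mdr2-/+, so a single mouse, Mdr2-/+ replicate 2, set its difference of -0.99 (SE 0.54, adjusted p = 0.358). MeDIP spots well above background made up 41.7% to 46.7% of the Mdr2-/+ spots at 3 of the 4 islands.

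Calls in opposite directions were found in 2 neighbourhoods, each time with the fall at an island that was not a member. In chr16:17824557-17842016 the first island fell by 0.67 (SE 0.14, adjusted p = 0.0392), with 33.3% of its MeDIP spots well above background, and the next, about 3 kb on, was higher by 0.69 (SE 0.13, adjusted p = 0.0314). In chr2:38161453-38179156 the first island fell from 0.05, 0.29 and 0.05 to -0.83, -0.71 and -0.74 (difference -0.89, SE 0.12), whereas the last rose by 1.09 (SE 0.22). The means of these neighbourhoods differed by 0.0048 (SE 0.12) and 0.31 (SE 0.13), and neither was called. No neighbourhood had members called in both directions.

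The neighbourhoods with the most islands were 2 of 9 islands and 5 of 8, of which the 3 with the widest span were named beside the 2. In these, levels varied widely and differences were mostly small. The 9 islands of chr10:80723331-80768169 had Mdr2-/+ means from -0.57 to 5.09 and differences from -0.23 to 0.57, and the 9 of chr10:79534474-79575215 had Mdr2-/+ means from -1.07 to 4.85 and differences from -0.61 to 0.35. None of these 18 islands was called. Nor was any of the 8 in chr7:141288623-141333810, which differed by -0.23 to 0.83, or of the 8 in chr2:17944225-17983422, which differed by -0.34 to 0.40. Of the other 2 with 8 islands, chr11:118850496-118874871 differed by -0.27 to 0.85 with 1 island called higher, and chr8:74390490-74418530 by -0.29 to 0.41 with none called. Islands of high and of low level lay within a few kb of each other in the 5 named stretches, in both genotypes.

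Across all neighbourhoods, the rises were mostly spread singly. A member that rose was found in 79 of the 423 neighbourhoods, with 1 such member in 68, 2 in 10 and 3 in 1. Of the 91 members that rose, 23 shared a neighbourhood with another. Counting the other islands once for each member that rose, 29 of 266 (10.9%) also rose and 70.3% had a positive difference. For members that were not called, 7.02% of the others rose and 63.6% had a positive difference. In 101 of the 421 neighbourhoods with every island tested (24.0%) all islands had a positive difference, and in 32 (7.60%) all had a negative one. With 3 islands, 76 of 272 neighbourhoods were all positive and 29 all negative, and the rest were mixed. These shares include the shift of members as a whole, of which 64.5% had a positive difference. How many such neighbourhoods would arise without likeness of neighbours was not tested.

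Adjacent members, those that followed each other in a neighbourhood, gave 749 pairs with both tested. The difference between genotypes had the same sign in 440 pairs (58.7%), positive in both in 323 and negative in both in 117, and the differences of a pair correlated at 0.18. This correlation was 0.20 for the MeDIP channel alone and -0.02 for the input channel, and 0.19 with the level trend subtracted. As background, differences between 2 mice of 1 genotype were compared in the same way: their correlation ran from -0.03, for Mdr2-/+ replicates 2 and 3, which shared a slide, to 0.23, for Mdr2-/+ replicates 1 and 3, and the share of the same sign from 50.1% to 62.2%. Mdr2-KO replicates 2 and 3, which shared a slide as well, gave 0.16. Single pairs of mice of different genotypes gave 0.11 to 0.27, with 0.25 for the pair on 1 slide. Over the 749 pairs, the 0.18 and the 58.7% of the genotype means thus lay within the ranges seen between mice of 1 genotype. The top of both ranges came from Mdr2-/+ replicates 1 and 3, which lay on different slides. Means of 3 mice were set here against single mice, so the comparison is not like for like. At gaps of at most 1 kb and of 5 to 10 kb, the correlation of the genotype means lay above the range within a genotype. All of these correlations are across islands, which share arrays, and carry no p.

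Neighbours were most alike where the gap was short. For the 144 pairs of members with a gap of at most 1 kb the differences between genotypes correlated at 0.44, and the sign was shared in 63.2%. At the same gaps, single pairs of mice of different genotypes gave correlations of 0.29 to 0.52. Pairs of mice of 1 genotype gave -0.04 to 0.37, with the sign shared in 53.5% to 63.2%. These ranges overlapped, but the 0.44 of the genotype means lay above every pair of mice of 1 genotype. For gaps of 1 to 2 kb (139 pairs), 2 to 5 kb (302 pairs) and 5 to 10 kb (164 pairs) the correlation was 0.11, 0.06 and 0.24. At 5 to 10 kb, single pairs of mice gave 0.08 to 0.24 between genotypes and -0.08 to 0.17 within a genotype, which overlapped as well. Here too the 0.24 of the genotype means lay above every pair of mice of 1 genotype. At 1 to 2 kb and 2 to 5 kb it lay within their ranges, 0.11 to 0.34 and -0.06 to 0.22. The members' levels in Mdr2-/+ correlated at 0.60, 0.53, 0.23 and 0.15 over the same 4 classes.

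Over all adjacent islands of chromosomes 1 to 19, the correlation of the difference was 0.40 at gaps of at most 1 kb, 0.14 at 1 to 2 kb, 0.13 at 2 to 5 kb, 0.13 at 5 to 10 kb and 0.05 at 10 to 50 kb. Beyond 50 kb it was 0.02 to 0.03, and the sign was shared in 50.1% to 50.8% of pairs. A single methylated fragment can bear on probes of both islands where the gap is short, and its part in these values was not tested.

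**Figure D4:**
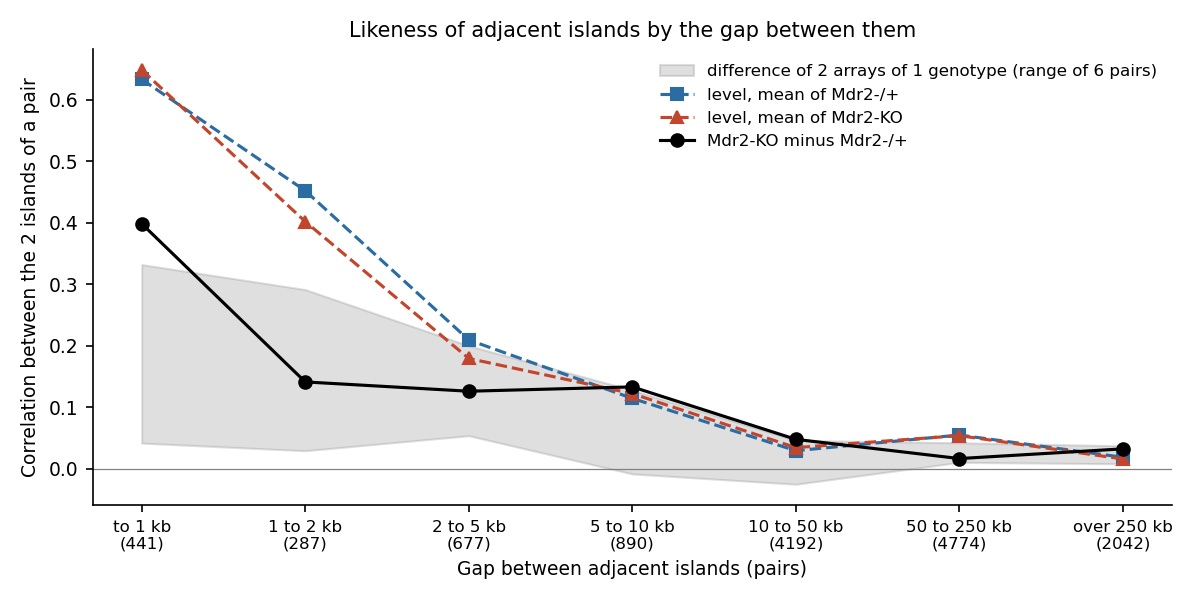
Correlation between the 2 islands of an adjacent pair, over all islands of chromosomes 1 to 19, against the gap between them, with the number of pairs in brackets. Black points show the difference Mdr2-KO minus Mdr2-/+ (0.40 at gaps of at most 1 kb and 0.05 at 10 to 50 kb), blue and red points the mean level of each genotype, and the grey band the range over the 6 pairs of mice of 1 genotype.

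**Figure D5:**
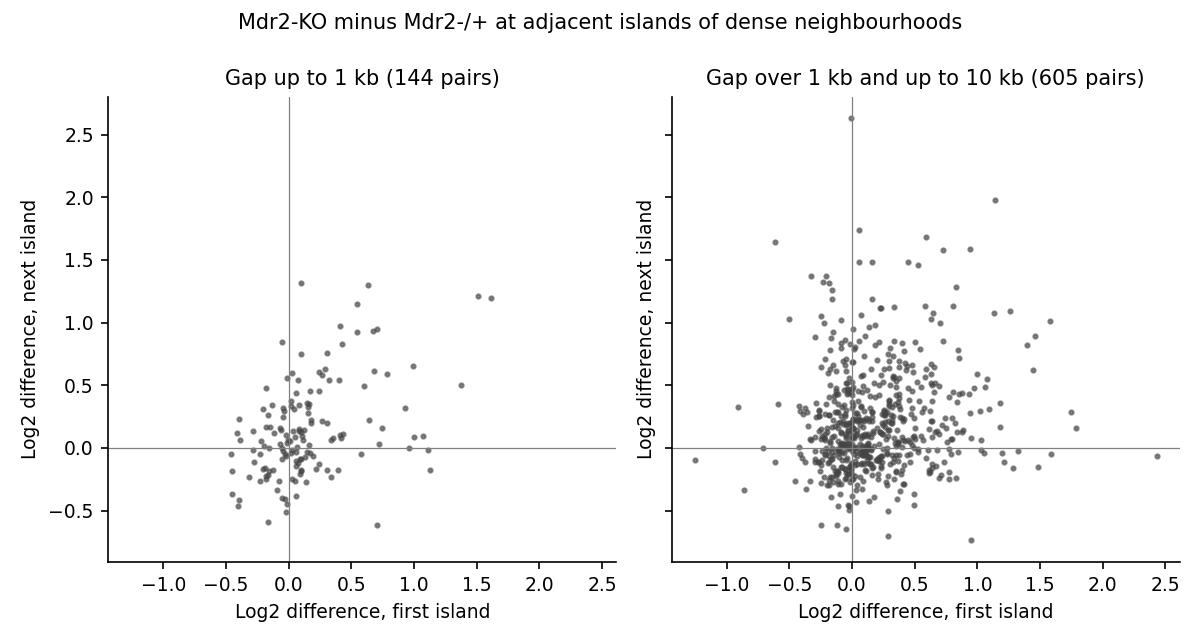
Log2 difference Mdr2-KO minus Mdr2-/+ of an island of a dense neighbourhood against that of the next member, 1 point per pair, for gaps of at most 1 kb (144 pairs) and for longer gaps. Points in the upper right are pairs higher in Mdr2-KO at both islands, 323 of all 749, and some of the largest differences stand beside a neighbour near 0.

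Members were unevenly spread over the chromosomes. Chromosome 11 held the most, 139, followed by chromosome 7 with 119 and chromosome 8 with 113, where they were 14.2% of the islands. Rises were found on every chromosome from 1 to 19. On chromosome 11, 12 of 139 members rose, on chromosome 4 10 of 76 and on chromosome 8 11 of 113. Among all members tested 7.76% rose, and the share over all islands of each chromosome was not counted. Chromosome 10 had 1 rise among 64 members, with a median difference of 0.10. The median difference of members was positive on 18 of the 19 chromosomes, up to 0.32 on chromosome 16 with 22 members, and was -0.01 on chromosome 12 with 29.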

How the data were processed

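DNA methylation was compared in livers of 3 Mdr2-/+ and 3 Mdr2-KO mice on 2-colour Agilent mouse CpG island arrays with 94687 features. The deposited intensity values, background-subtracted and dye-normalized by the authors' scanner software, are Feature Extraction signals, version 10.5.1.1 per the file headers and 8.5.1.1 per the submitters' processing notes. The authors also deposited a table of normalized scores per probe, which was used as an alternative. Its columns show the genotype but not the mouse. The log2 of processed Cy5 (MeDIP) over Cy3 (input) was centred on each array's median, control spots (5950) and 91 probes with an outlier flag on any array were left out, and islands with at least 3 usable probes were averaged. Centring removes any overall shift in methylation.

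Islands and chains were tested with limma 3.58.1 in R 4.3.3, with Benjamini-Hochberg adjustment and a threshold of 0.05. The labels number the liver samples within each genotype, and the paper gives 3 males per group. Having 3 mice a genotype limits the precision. The tests were tried on simulated data with known changes. Alternatives were another background correction, normalization, scale, probe filter, block, weighting, test or distance, and leaving out each array.

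The members, lists and tests were chosen with earlier results of these data known. Named were the 10 members with the largest rises and 5 with the largest falls (2 were called), the 8 called neighbourhoods with the largest differences, the 5 with most islands (ties by span), those with at least 3 islands called or calls both ways, and the 3 lowest and 3 highest levels. The neighbourhood that fell, single islands within neighbourhoods and the chromosomes named were chosen after their values were seen. No sequence or gene of mm8 was used here.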

Additional observations from a re-analysis of the deposited data

How the results depend on the processing

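The counts of members and of neighbourhoods called moved with most settings, and the cause was not tested except where the setting itself lowers the number of samples or islands. Counts are given as members higher and lower, then neighbourhoods higher and lower, against 91, 2, 23 and 1. Those at an unadjusted p have no count over all islands beside them here. They were 0, 0, 0 and 0 with normexp background correction (222 and 11 members at an unadjusted p under 0.05), 60, 1, 11 and 1 with loess, 156, 26, 35 and 4 with quantile normalization, 203, 11, 54 and 1 with arrays divided by their SD, and 197, 16, 66 and 1 from the authors' deposited scores. They were 98, 1, 36 and 0 with only probes well above background, 76, 1, 13 and 0 with the median over probes, 96, 0, 45 and 0 with islands of 5 or more probes, 0, 0, 0 and 0 with slide as a fixed block, 78, 0, 14 and 0 with slide as a random block, 368, 29, 148 and 1 with array weights, and 2, 0, 1 and 0 with the methods' t-test after Benjamini-Hochberg adjustment (226 and 45 members before it). With members redefined by 2 others within 5 kb they were 41, 0, 15 and 0, by 2 others within 20 kb 156, 5, 22 and 0, and by 3 others within 10 kb 33, 0, 8 and 0. With the level trend subtracted, a setting chosen after seeing the data, they were 46, 0, 7 and 0. With single arrays left out, there were 6 to 391 members higher and 0 to 15 lower, and 1 to 138 neighbourhoods higher and 0 to 1 lower. The share of all islands that rose moved as well, from 4.28%. It was 2.89% with loess, 9.19% with arrays divided by their SD, 9.99% in the deposited scores and 18.5% with array weights. Members rose at 5.12%, 17.3%, 19.6% and 31.4% in that order. For all islands it was 5.07% with only probes well above background and 3.34% with the median over probes. With 5 or more probes it was 6.46%, and with slide as a random block 3.3%.

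The replicate numbers did not pair the mice: deviations from the genotype means at the same number correlated at 0.11, -0.09 and 0.12. With the replicate block, 84 members were higher and 1 lower, and 15 neighbourhoods were higher and 0 lower.

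The median difference of members, 0.11, was 0.17 with normexp, which moved the median of all islands to 0.11, 0.0060 with quantile normalization, 0.049 with arrays divided by their SD, 0.030 in the deposited scores, 0.0057 with slide as a fixed block, 0.20 with array weights, 0.16 with 3 others within 10 kb, 0.058 with the level trend subtracted, and 0.062 to 0.23 without single arrays. It stayed above the median of all islands in each of these, and the share of members that rose exceeded that of all islands in each setting but normexp (0% in both) and slide as a fixed block (0% against 0.0507%). The share of adjacent members with the same sign, 58.7%, was 66.1% with normexp, 64.1% with array weights, 63.9% with 3 others within 10 kb and 58.5% to 62.5% without single arrays. The correlation of their differences, 0.18, was 0.27 with islands of 5 or more probes and 0.25 with slide as a fixed block.

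Among the 21 named islands and neighbourhoods that were called, all lost the call with normexp, where the sizes of the differences were 0.10 to 1.88, and with slide as a fixed block, where they were 0.56 to 2.40. With the methods' t-test 20 lost the call, with the differences themselves as before (0.86 to 2.63). The sign turned at chr8:87730242-87730898 with the median over probes (0.10). Of the neighbourhoods not called, the mean difference turned at chr10:79534474-79575215 with normexp (0.30), with 5 or more probes (0.029), with array weights (0.032) and without single arrays (-0.11 to 0.0020). It turned at chr10:80723331-80768169 with loess (-0.072), the deposited scores (-0.019) and slide as a fixed block (-0.084), at chr2:17944225-17983422 with quantile normalization (-0.032), and at chr16:17824557-17842016 with quantile normalization (-0.071), slide as a fixed block (-0.16), slide as a random block (-0.012), the level trend subtracted (-0.033) and without single arrays (-0.067 to 0.082).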
